A study of Homo sapiens with 13 samples.

Results

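The genes described here are CIITA and 9 genes of the class II major histocompatibility complex (MHC) route: CD74, HLA-DRA, HLA-DRB1, HLA-DPA1, HLA-DPB1, HLA-DQA1, HLA-DQB1, HLA-DMA and HLA-DMB. They were found by gene symbol in a deposited table of raw read counts for 45744 genes. All 10 matched 1 row each, and all 10 were among the 17252 genes with enough counts to be tested. They were chosen by their counts in these libraries, where several had been seen to be higher with chaetocin than with DMSO while class I genes were lower. Their chaetocin against DMSO values are therefore given as a description, with no test.

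The libraries came from HuT78, a human T cell line derived from a patient with Sézary syndrome, a leukemic form of cutaneous T cell lymphoma. All groups are this 1 line, with no genetic change named, and all were kept for 72 h with a compound or its vehicle. There were 4 libraries with chaetocin at 10 nM (replicates 1 to 4), 3 with F5446 at 10 nM (replicates 2 to 4), 4 with romidepsin at 1 µM (replicates 1 to 4) and 2 with DMSO (replicates 1 and 4). Chaetocin is a fungal metabolite that inhibits histone H3 lysine 9 methyltransferases of the SUV39H1 type, F5446 is a code-named SUV39H1 inhibitor, and romidepsin is a histone deacetylase inhibitor. Nothing in the labels ties a replicate to a culture of its own, so p-values cover only the spread between these samples, which may be technical.

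Class II molecules are pairs of an alpha and a beta chain that carry peptides from the endosome to the cell surface, where CD4 T cells read them. The classical pairs are DR, DP and DQ. CD74, the invariant chain, fills the groove of a new pair and steers it to the endosome, and HLA-DM, made of HLA-DMA and HLA-DMB, then helps exchange the remaining CD74 fragment for a peptide. CIITA is the coactivator that switches these genes on together. It does not bind DNA itself but docks on RFX and NF-Y factors that sit on an X box and a Y box of the promoters. Human T cells, unlike mouse T cells, express class II genes when activated, and interferon gamma induces CIITA in many cell types.

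The promoters of these genes show the platform on which CIITA acts, so the stretch with these boxes is printed for 7 of them. RefSeq promoter entries (GRCh38.p14, 250 bases before to 50 after the start) were matched for 8 of the 10 genes by symbol. HLA-DPA1 had 2 entries, and the one with a match is shown. Each sequence runs 5′ to 3′ on the strand of the gene, and capitals mark a match to the X box pattern (CNAG, any 2 bases, then ACNGA) or to the Y box core (ATTGG), which do not overlap.
HLA-DRB1, chr6:32589884-32589935, minus strand: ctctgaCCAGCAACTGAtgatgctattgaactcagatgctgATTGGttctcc
HLA-DQA1, chr6:32637296-32637348, plus strand: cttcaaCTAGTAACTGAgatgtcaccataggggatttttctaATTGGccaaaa
HLA-DQB1, chr6:32666735-32666786, minus strand: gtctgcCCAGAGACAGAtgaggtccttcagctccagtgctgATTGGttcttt
HLA-DMA, chr6:32953166-32953218, minus strand: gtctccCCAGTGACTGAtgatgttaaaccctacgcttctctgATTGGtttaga
HLA-DMB, chr6:32941078-32941124, minus strand: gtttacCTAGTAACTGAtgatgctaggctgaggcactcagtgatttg
HLA-DPA1, chr6:33073710-33073756, minus strand: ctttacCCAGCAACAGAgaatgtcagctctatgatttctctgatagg
HLA-DPB1, chr6:33075851-33075901, plus strand: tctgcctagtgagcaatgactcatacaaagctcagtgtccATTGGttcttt

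In HLA-DRB1, HLA-DQA1, HLA-DQB1 and HLA-DMA the Y box core lay 24 or 25 bases after the end of the X box match. HLA-DMB and HLA-DPA1 held the X box match without the Y box letters on the gene strand in this window, and HLA-DPB1 the reverse. CD74, the eighth matched gene, had no X box match. The X box pattern was written after these promoters had been read, so its presence in them is a description only. Searched on both strands, it was in 3.35% of the 35116 promoters in the RefSeq table, the Y box core was in 34.6%, and both were in 1.08%. An X box match followed on the gene strand by the Y box core within 10 to 40 bases was in 15 promoters (0.0427%). Of these 15, 6 belonged to class II loci: HLA-DRB1, HLA-DRB5, HLA-DQA1, HLA-DQB1, HLA-DMA and HLA-DOA. A match is a match of letters and not a measured binding site, and the RNA counts do not bear on binding.

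Levels are given as CPM, read counts scaled to a common library size normalized by the TMM method of edgeR. CPM is not divided by gene length, so levels are compared between libraries for 1 gene and never between genes. The libraries held 19901052 to 30816188 counts. The least counted of the 10 genes, HLA-DMB, had 113 to 355 reads a library, and CD74 had 66051 to 132508. HLA-DRB1, HLA-DQA1 and HLA-DQB1 have near-identical relatives (HLA-DRB5, HLA-DRB6, HLA-DQA2 and HLA-DQB2), so reads may have been split or lost between them and their values are uncertain. The 10 genes together took 0.402 to 0.607% of all counts, with the DMSO libraries lowest at 0.421% and 0.402% and the next library at 0.457%. Chaetocin replicate 3 stood apart, with 15.9% of its counts on genes with a mitochondrial symbol and the lowest scaling factor (0.859), where the other 12 had 5.22 to 12.7%. T cell markers (9 of 10 tested) summed to 720 to 1028 CPM, with CD3E between 176 and 267 CPM and CD28 at 1.05 CPM or less. B cell markers, which would come with a high class II level, summed to 51.0 to 105 CPM with 4 of 8 tested, with PAX5 and CD22 at or under 0.156 and 0.531 CPM. Of that list CD79A (26.3 to 78.0 CPM), MS4A1 (7.72 to 33.3 CPM), BLK (6.80 to 14.2 CPM) and CD79B (2.31 to 7.64 CPM) were detected in every library. Monocyte and dendritic cell markers summed to 1.13 to 5.80 CPM, with CD68 and CLEC9A at 0 in all 13 libraries. Fibroblast markers summed to 17.3 to 33.0 CPM, with COL1A1 alone at 14.3 to 32.0 CPM and COL1A2 and DCN at 0.193 CPM or less. Natural killer cell markers summed to 0 to 0.594 CPM with NCR1 at 0. In bulk RNA, fewer cells that carry a transcript and less of it per cell cannot be told apart.

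CIITA, the master coactivator, parted by the replicate number of the library and not by the compound. It was at 134, 125, 76.7 and 70.9 CPM in chaetocin replicates 1 to 4. F5446 replicates 2, 3 and 4 had 104, 76.2 and 82.3 CPM. Romidepsin replicates 1 to 4 had 136, 110, 74.7 and 88.8 CPM, and DMSO replicates 1 and 4 had 105 and 76.8 CPM. The 6 libraries numbered 1 or 2 all lay at 104 CPM or more, and the 7 numbered 3 or 4 all at 88.8 CPM or less, so all 4 treatment groups overlapped while the sets of numbers did not. In the same direction 2.25% of the 17252 genes parted the numbers in this way. CIITA was higher in numbers 1 and 2 by 0.81 on the log2 scale with chaetocin, 0.39 with F5446, 0.58 with romidepsin and 0.45 with DMSO. That the libraries part by replicate number was known from earlier results, so this is a description. What the numbers stand for is not given by the labels. The B cell gene CD79A parted the other way, with 26.3 to 38.3 CPM in numbers 1 and 2 and 46.2 to 78.0 CPM in 3 and 4, and its part in the CIITA values was not tested.

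Against DMSO (90.8 ± 19.8 CPM, SD, n = 2), CIITA was at 102 ± 32.4 CPM with chaetocin (SD, n = 4), 87.4 ± 14.4 with F5446 (SD, n = 3) and 102 ± 26.5 with romidepsin (SD, n = 4). Its log2 fold change was 0.16 for chaetocin, -0.06 for F5446 (95% interval -0.67 to 0.55) and 0.17 for romidepsin (-0.41 to 0.75). The differences were smaller than the SD between libraries in each compared group, and both intervals include 0.

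**Figure D1:**
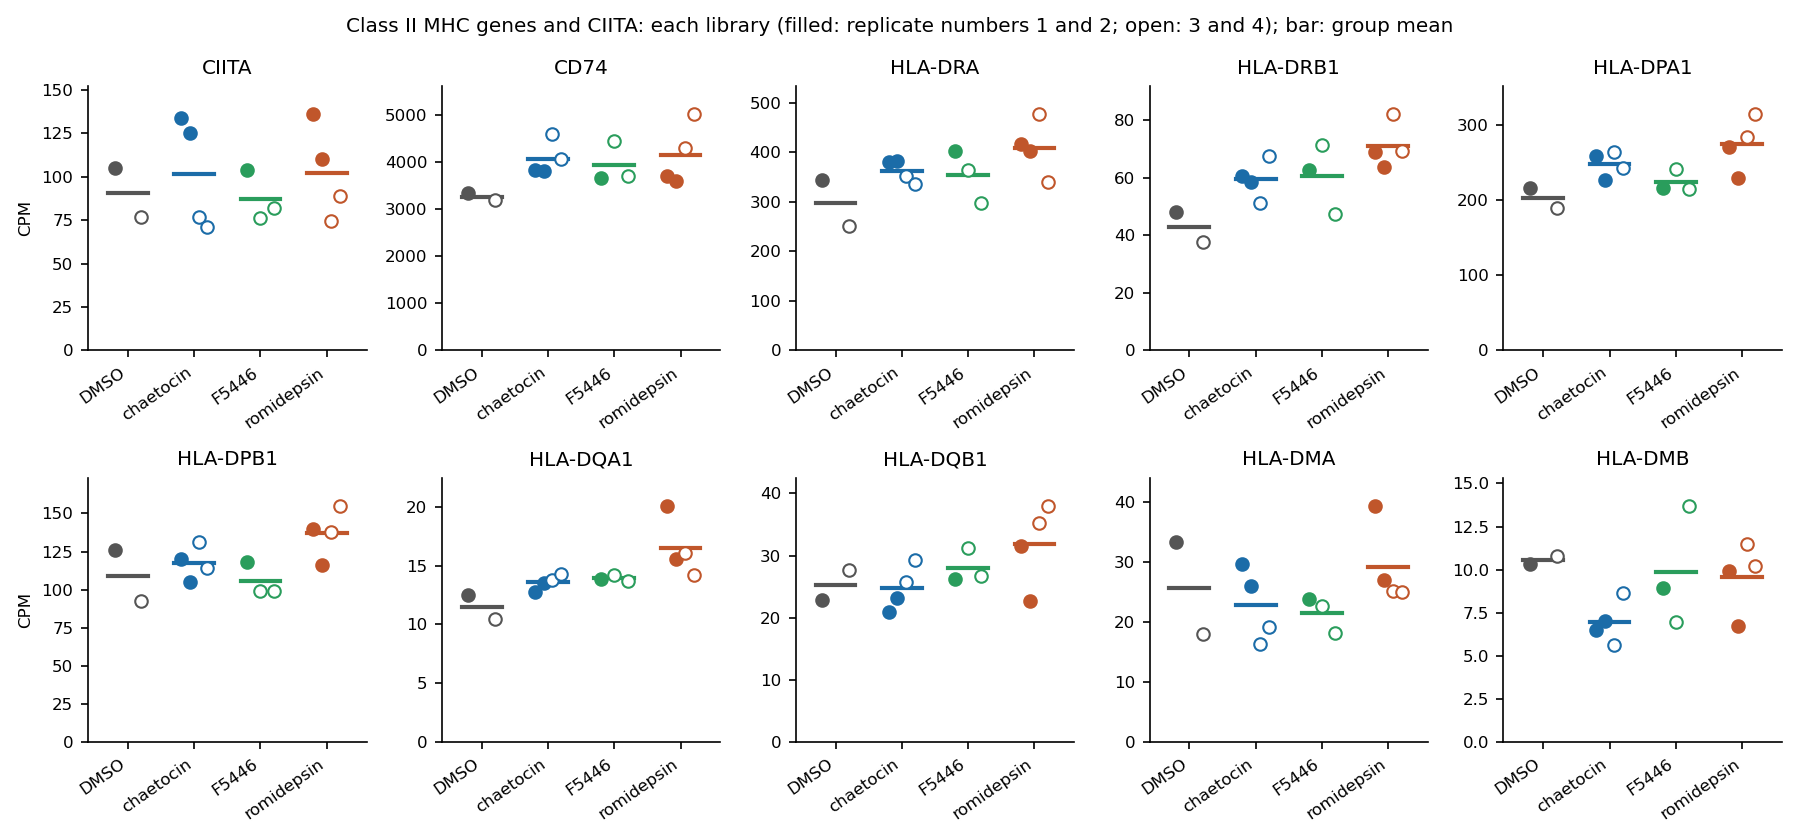
Level of each of the 10 genes (CPM, linear axis from 0, 1 panel a gene) in each library of the 4 groups, with filled points for replicate numbers 1 and 2, open points for 3 and 4 and a bar at the group mean. In CIITA every filled point is at 104 CPM or more and every open point at 88.8 CPM or less, while in CD74, HLA-DRB1, HLA-DPA1 and HLA-DQA1 the 2 DMSO libraries lie below all chaetocin and all romidepsin libraries.

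CD74, the invariant chain, was lowest in the vehicle libraries. DMSO replicates 1 and 4 were at 3334 and 3191 CPM. Chaetocin replicates 1 to 4 were at 3837, 3806, 4585 and 4057 CPM, F5446 replicates 2, 3 and 4 at 3670, 4448 and 3695 CPM, and romidepsin replicates 1 to 4 at 3693, 3595, 4295 and 5013 CPM. Neither DMSO library reached the level of any of the 11 treated libraries. By compound, 5.22% of all genes tested lay so for chaetocin, 9.44% for F5446 and 5.34% for romidepsin. The share for all 11 together was not counted, and the arrangement takes in the comparison in which the genes were chosen. The log2 fold change against DMSO was 0.32 for chaetocin, 0.27 for F5446 (95% interval -0.08 to 0.63) and 0.35 for romidepsin (0.01 to 0.69).

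The DR pair is the most abundant class II molecule on most human cells, and its alpha chain is nearly the same in all people. HLA-DRB1, the main beta chain, was at 48.2 and 37.8 CPM in DMSO replicates 1 and 4. It was at 60.5, 58.5, 51.2 and 67.6 CPM in chaetocin replicates 1 to 4, at 62.6, 71.6 and 47.6 CPM in F5446 replicates 2, 3 and 4, and at 69.0, 63.8, 82.1 and 69.2 CPM in romidepsin replicates 1 to 4. Both DMSO libraries lay below every chaetocin and romidepsin library, and F5446 replicate 4 lay between them. The log2 fold change was 0.47 for chaetocin, 0.50 for F5446 (95% interval 0.11 to 0.88) and 0.72 for romidepsin (0.35 to 1.10), the largest of the 10 genes in each comparison with DMSO. HLA-DRA, the alpha chain, was at 345 and 251 CPM with DMSO, 337 to 382 CPM with chaetocin, 298 to 402 CPM with F5446 and 341 to 477 CPM with romidepsin. Its DMSO replicate 1 lay within all 3 treated ranges, so the groups overlapped. Its log2 fold changes were 0.29, 0.25 (95% interval -0.10 to 0.61) and 0.46 (0.12 to 0.80) in the same order.

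The DP pair is another classical peptide carrier. HLA-DPA1, its alpha chain, was at 216 and 190 CPM in DMSO replicates 1 and 4, and at 258, 226, 264 and 242 CPM in chaetocin replicates 1 to 4. F5446 replicates 2, 3 and 4 had 216, 241 and 215 CPM, and romidepsin replicates 1 to 4 had 270, 229, 284 and 314 CPM. The DMSO libraries lay below all chaetocin and romidepsin libraries but reached the F5446 range. HLA-DPB1, the beta chain, was at 126 and 92.5 CPM with DMSO, 105 to 131 CPM with chaetocin, 98.9 to 118 CPM with F5446 and 116 to 155 CPM with romidepsin. DMSO overlapped each of the other groups in it. The log2 fold changes against DMSO for chaetocin, F5446 and romidepsin were 0.29, 0.14 and 0.43 for HLA-DPA1 and 0.11, -0.05 and 0.33 for HLA-DPB1.

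The DQ pair was counted at a low level. HLA-DQA1, its alpha chain, was at 12.5 and 10.5 CPM with DMSO, 12.8, 13.5, 13.8 and 14.3 CPM in chaetocin replicates 1 to 4, 13.9, 14.2 and 13.7 CPM in F5446 replicates 2, 3 and 4, and 20.1, 15.6, 16.1 and 14.2 CPM in romidepsin replicates 1 to 4. Every treated library was above both DMSO libraries, although chaetocin replicate 1 was so by a margin smaller than the gap between the DMSO libraries. The shares of all genes printed for CD74 hold for this arrangement too, which also takes in the comparison of the choice. The log2 fold changes against DMSO were 0.24 for chaetocin, 0.28 for F5446 (95% interval -0.18 to 0.74) and 0.52 for romidepsin (0.08 to 0.97). HLA-DQB1, the beta chain, was at 22.9 and 27.6 CPM with DMSO, 20.9 to 29.3 CPM with chaetocin, 26.3 to 31.2 CPM with F5446 and 22.7 to 38.0 CPM with romidepsin. All 4 groups overlapped, and its log2 fold changes were -0.03, 0.15 and 0.34.

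The DM chains edit the peptide cargo and do not present it, and the mean of neither was higher with chaetocin or F5446 than with DMSO. HLA-DMA was at 33.4 and 18.0 CPM in DMSO replicates 1 and 4, a range that held 3 of the 4 chaetocin libraries (29.7, 26.0, 16.3 and 19.2 CPM) and all 3 F5446 libraries (23.9, 22.7 and 18.1 CPM). With romidepsin it was at 39.4, 27.0, 25.2 and 25.1 CPM in replicates 1 to 4. HLA-DMB was at 10.3 and 10.8 CPM with DMSO and at 6.48, 7.01, 5.63 and 8.67 CPM with chaetocin, so every chaetocin library was lower than both DMSO libraries. F5446 replicates 2, 3 and 4 spread from 8.92 and 6.94 to 13.7 CPM, and romidepsin replicates 1 to 4 had 9.94, 6.75, 11.5 and 10.2 CPM, both overlapping DMSO. HLA-DMB had the lowest log2 fold change of the 10 genes for chaetocin (-0.60), with -0.10 for F5446 (95% interval -0.74 to 0.54) and -0.13 for romidepsin (-0.74 to 0.48). HLA-DMA had -0.17, -0.25 (95% interval -0.83 to 0.33) and 0.18 (-0.37 to 0.74), and its sign turned with the DMSO library used: without DMSO replicate 1 it was at 0.34 for chaetocin and 0.25 for F5446, and without DMSO replicate 4 at -0.19 for romidepsin.

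Over the 10 genes, the order of group means placed romidepsin highest in 9, with CIITA equal to chaetocin as printed, and DMSO lowest in 5. HLA-DMB was the exception, with DMSO highest. Of the 30 pairs of neighbours in these orders, 3 lay further apart than the sum of their SDs, each with DMSO as the lower group. This is a description and not a test, since the genes were chosen in chaetocin against DMSO. All 3 pairs use the same DMSO libraries, whose SD rests on n = 2. In HLA-DRB1 they were DMSO at 43.0 ± 7.33 CPM (SD, n = 2) and chaetocin at 59.4 ± 6.73 (SD, n = 4). In HLA-DQA1 they were DMSO at 11.5 ± 1.36 CPM (SD, n = 2) and chaetocin at 13.6 ± 0.625 (SD, n = 4), and in CD74 DMSO at 3263 ± 101 CPM (SD, n = 2) and F5446 at 3937 ± 442 (SD, n = 3). The other neighbours lay no further apart than the sum of their SDs, F5446 (60.6 ± 12.2 CPM, SD, n = 3) and romidepsin (71.0 ± 7.81, SD, n = 4) in HLA-DRB1 among them.

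Chaetocin against DMSO is the comparison in which the genes were chosen. The log2 fold change was above 0 in 7 of 10, from -0.60 in HLA-DMB to 0.47 in HLA-DRB1, with a median of 0.20 where the median of all genes tested was 0.01. It rested in part on 1 DMSO library: without DMSO replicate 4 the median was 0.09, and without DMSO replicate 1 it was 0.36. Signs turned without DMSO replicate 4 in CIITA (-0.04), HLA-DPB1 (-0.09) and HLA-DQB1 (0.11), and without DMSO replicate 1 in HLA-DMA (0.34). HLA-DQB1 was also at 0.04 without chaetocin replicate 1, and CIITA was then at 0.00. In CD74, HLA-DRB1, HLA-DPA1 and HLA-DQA1 all chaetocin libraries were above both DMSO libraries, an arrangement found in 5.22% of all genes tested, and in HLA-DMB all were below, found in 6.09%. Without chaetocin replicate 3 the median was 0.25, HLA-DRB1 was at 0.53 and HLA-DMB at -0.51. The sets of replicate numbers gave 0.11 (1 and 2) and 0.41 (3 and 4), each against a single DMSO library. Over the 17252 genes edgeR called none (0%) at an adjusted p under 0.05, and 703 (4.07%) passed 0.05 without adjustment. DESeq2 called 9 and limma-voom 0.

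The class I genes, which present peptides from the cytosol to CD8 T cells, entered the choice of the class II genes by being lower here. All 10 tested had a log2 fold change below 0 for chaetocin against DMSO, with a median of -0.42. Against DMSO their median was 0.04 for F5446 and 0.12 for romidepsin.

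F5446 against DMSO gave smaller and mixed differences. Of the 10 genes, 6 were above 0, with a median log2 fold change of 0.15. By edgeR, HLA-DRB1 alone was at an unadjusted p under 0.05 (adjusted p = 1.00, the quasi-likelihood test with Benjamini-Hochberg adjustment), where 2.48% of all genes tested were so in either direction and 1.51% were higher. All F5446 libraries lay above both DMSO libraries in CD74 and HLA-DQA1, where 9.44% of all genes did so. edgeR called 0 of the 17252 genes (0%), where 428 passed 0.05 without adjustment and DESeq2 called 1. Numbers 1 and 2, which hold 1 F5446 and 1 DMSO library, gave a median of 0.07, and numbers 3 and 4 gave 0.21. Leaving out F5446 replicate 3 made the count of 1 become 0, and leaving out DMSO replicate 1 made it 2. The median of 0.15 became 0.05 when DMSO replicate 4 was left out and 0.24 when DMSO replicate 1 was.

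Romidepsin against DMSO gave the highest values, and none passed the adjusted test. The log2 fold change was above 0 in 9 of 10, with a median of 0.34 against 0.01 for all genes tested. By edgeR, 6 genes were higher at an unadjusted p under 0.05: HLA-DRB1, HLA-DPA1, HLA-DRA, HLA-DQA1, CD74 and HLA-DPB1, in order of p. The 95% intervals were 0.14 to 0.73 for HLA-DPA1 and 0.00 to 0.66 for HLA-DPB1. Of all genes tested, 1.82% were higher at that level and 2.82% were past it in either direction. The adjusted p was 1.00 for all 6, and edgeR called 0 of 17252 genes (0%), where 487 passed 0.05 without adjustment and DESeq2 called 1. All romidepsin libraries lay above both DMSO libraries in CD74, HLA-DRB1, HLA-DPA1 and HLA-DQA1, as 5.34% of all genes did. The count of 6 rested on DMSO replicate 4, which had the lowest value of all 13 libraries in CD74, HLA-DRA, HLA-DRB1, HLA-DPA1, HLA-DPB1 and HLA-DQA1: without it 1 gene was at an unadjusted p under 0.05, and the log2 fold changes were -0.04 for CIITA and -0.19 for HLA-DMA. Numbers 1 and 2 gave a median of 0.21 and numbers 3 and 4 gave 0.53, and without DMSO replicate 1 it was 0.55. MS4A1, a B cell marker, was also higher with romidepsin at an unadjusted p under 0.05 (23.8 against 13.7 CPM, log2 fold change 0.79, 95% interval 0.18 to 1.41, edgeR adjusted p = 1.00), while CD79A (0.21), CD79B (0.15) and BLK (-0.01) were not past that level, and its part in the class II values was not tested. The 3 comparisons with DMSO share the same DMSO libraries, so their values are not independent of each other or of the choice of the genes.

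**Figure D2:**
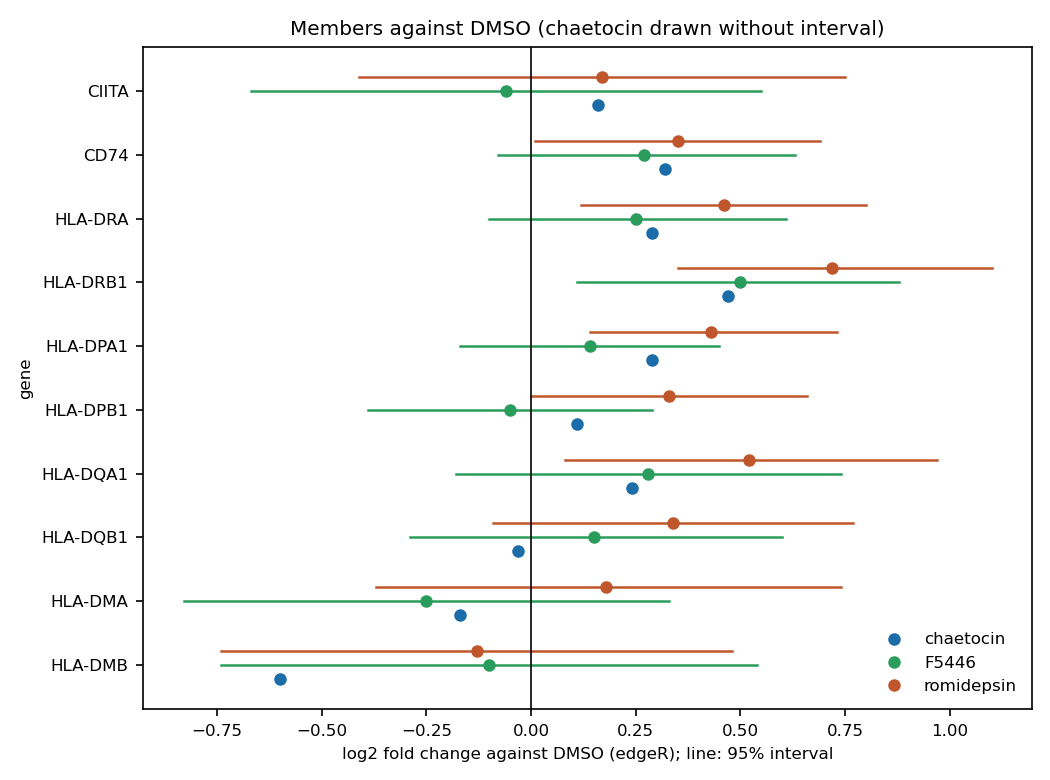
Log2 fold change of each of the 10 genes against DMSO (x axis, 0 marked) for chaetocin, F5446 and romidepsin, with 95% intervals from edgeR for the last 2 compounds and none for chaetocin. HLA-DRB1 has the highest value in each comparison, from 0.47 to 0.72, and HLA-DMB lies below 0 in all 3.

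Romidepsin against F5446 shares no library with the comparison in which the genes were chosen. The doses differ (1 µM and 10 nM), and so do the targets of the compounds. The log2 fold change was above 0 in 9 of 10 genes, from -0.03 in HLA-DMB to 0.44 in HLA-DMA, with a median of 0.23 where that of all genes tested was 0.00. By edgeR the DP genes were at an unadjusted p under 0.05, HLA-DPA1 with 0.29 (95% interval 0.03 to 0.55, adjusted p = 1.00) and HLA-DPB1 with 0.38 (0.09 to 0.67, adjusted p = 1.00). Of all genes tested 1.52% were higher at that level, 2.46% were past it in either direction, and edgeR called 0 (0%), where 424 passed 0.05 without adjustment. The count of 2 became 1 without F5446 replicate 2 or 4, or without romidepsin replicate 3 or 4. HLA-DQA1 and HLA-DMA had all romidepsin libraries above all F5446 libraries, as 2.56% of all genes did. In HLA-DQA1 the margin was lost in rounding, with romidepsin replicate 4 and F5446 replicate 3 both at 14.2 CPM as printed. Numbers 1 and 2, with a single F5446 library, gave a median of 0.10, and numbers 3 and 4 gave 0.30. With the replicate number as a block edgeR called 2 of the 17252 genes, and none of the 10. F5446 has no replicate 1, so the groups differ in replicate numbers, by which CIITA and HLA-DMA also differed. With the block HLA-DMA was at 0.26 and not at an unadjusted p under 0.05. CIITA was at 0.07 with the block and 0.23 without it, and the median of the 10 genes was 0.20 with it.

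Chaetocin and F5446, given at the same nominal dose and for the same time, were not distinguishable in these genes by edgeR. The median log2 fold change of chaetocin against F5446 was 0.04, and 0 of the 10 genes were at an unadjusted p under 0.05, where 3.40% of all genes tested were. edgeR called 0 of the 17252 (0%), where 587 passed 0.05 without adjustment and DESeq2 called 2. The intervals allow differences of some size. HLA-DRB1 was at -0.03 (95% interval -0.35 to 0.29), HLA-DRA at 0.03 (-0.26 to 0.33), CD74 at 0.05 (-0.25 to 0.34) and CIITA at 0.22 (-0.29 to 0.73). F5446 has no replicate 1, so the groups differ in replicate numbers, and with the number as a block CIITA was at 0.05. HLA-DMB was lowest at -0.50 (95% interval -1.03 to 0.04, edgeR adjusted p = 0.999). With the replicate number as a block it was at -0.48, at an unadjusted p under 0.05, and edgeR called 11 genes. That difference was smaller without F5446 replicate 4 (-0.19) and larger without F5446 replicate 3 (-0.70), and 1 gene was at an unadjusted p under 0.05 without F5446 replicate 3 or chaetocin replicate 4. Numbers 1 and 2 gave a median of -0.07, and numbers 3 and 4 gave 0.01.

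Romidepsin against chaetocin uses the libraries of the choice on its chaetocin side, at doses that differ. All 10 genes were above 0, with a median log2 fold change of 0.24, from 0.01 in CIITA to 0.47 in HLA-DMB. HLA-DQB1 was at 0.37 (95% interval 0.02 to 0.71, edgeR adjusted p = 0.903), alone among the 10 at an unadjusted p under 0.05. Of all genes tested 3.37% were higher at that level, 5.44% were past it in either direction and 16 (0.0927%) were called, with none of the 10 among them. With the replicate number as a block, 4 were at an unadjusted p under 0.05: HLA-DPB1 (0.22), HLA-DQB1 (0.35), HLA-DMA (0.36) and HLA-DMB (0.48), and edgeR called 144 genes of the 17252. Over single libraries left out the count ran from 0 to 3. It was 0 without chaetocin replicate 2 or without romidepsin replicate 1, 3 or 4, and 3 without chaetocin replicate 4 or romidepsin replicate 2. Numbers 1 and 2 gave a median of 0.17, and numbers 3 and 4 gave 0.25. The class I genes lay the same way in this comparison and further from 0. All 10 of them were above 0, with a median of 0.52, and 8 were higher at an unadjusted p under 0.05 by edgeR.

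The rest of the class II route was read from a list of 49 symbols, of which 44 matched a row and 40 had enough counts. Of 6 further class II loci tested, 5 were above 0 in each comparison with DMSO, though not the same 5. The medians were 0.27, 0.19 and 0.34 for chaetocin, F5446 and romidepsin. Among the DR, DP and DQ chains described above, HLA-DQB1 (-0.03) was below 0 for chaetocin and HLA-DPB1 (-0.05) for F5446. All other values of those chains against DMSO were above 0. HLA-DOB (0.0479 and 2.27 CPM with DMSO), HLA-DQB2 (0.671 and 1.88 CPM) and HLA-DRB6 (2.78 and 2.13 CPM) were at a low level. HLA-DRB5, HLA-DRB6, HLA-DQA2 and HLA-DQB2 may share reads with the genes described here, so their values are not independent of those. HLA-DRB5, a DR beta chain close to HLA-DRB1 in sequence, had log2 fold changes of 0.31, 0.14 (95% interval -0.26 to 0.54) and 0.34 (-0.05 to 0.72). HLA-DOA, a chain of the DO molecule that restrains HLA-DM, had 0.24, 0.17 (-0.40 to 0.74) and 0.38 (-0.17 to 0.92). No further class II locus was at an unadjusted p under 0.05 for F5446 or romidepsin by edgeR.

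The promoter factors on which CIITA docks went both ways. Of 7 tested, the medians were 0.02, -0.04 and -0.09 for chaetocin, F5446 and romidepsin against DMSO. RFX5, the DNA-binding subunit of RFX, had log2 fold changes of 0.07, -0.04 (95% interval -0.37 to 0.29) and -0.12 (-0.43 to 0.19). NFYA, a subunit of NF-Y, had -0.09, 0.13 (-0.27 to 0.52) and -0.09 (-0.46 to 0.28). With romidepsin RFXAP and RFXANK, the other RFX subunits, were at -0.31 (-0.79 to 0.17) and 0.30 (-0.28 to 0.88), and NFYB was at -0.24 (-0.60 to 0.11). All romidepsin libraries lay below both DMSO libraries in RFXAP and NFYB, as they did in 859 of the 17252 genes tested. CREB1, which binds an element beside the X box, was at 67.5 and 67.7 CPM with DMSO, 40.3 to 61.5 CPM with chaetocin, 52.2 to 56.9 CPM with F5446 and 56.1 to 72.0 CPM with romidepsin. Its log2 fold changes were -0.40, -0.29 (95% interval -0.66 to 0.08) and -0.08 (-0.43 to 0.27).

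The interferon gamma route leads to CIITA. Of its 9 tested genes, 8 were below 0 for chaetocin against DMSO, with a median of -0.19, where CIITA was at 0.16. For romidepsin against DMSO 7 were below 0, with a median of -0.14, where CIITA was at 0.17. For F5446 against DMSO 5 were below 0, with a median of -0.03, where CIITA was at -0.06. All 3 comparisons use the same DMSO libraries. IRF1, which acts on the interferon-inducible CIITA promoter, was at 89.9 to 113 CPM with chaetocin and 134 to 156 CPM with DMSO. IFNG, the interferon gamma gene, was at 0.870 CPM or less with chaetocin, with no read in replicate 3, and at 4.70 and 1.30 CPM with DMSO.

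By edgeR, romidepsin against chaetocin had CREB1, IFNG, IRF1, PRDM1 and LAG3 higher at an unadjusted p under 0.05. LAG3 is a receptor that binds class II molecules. MIF, a ligand of CD74, was lower at that level (-0.67). It was at 439 CPM in chaetocin replicate 3 and 126 to 241 CPM in the other libraries of the 2 groups. Of all genes tested 3.37% were higher at that level, and 5.44% were past it in either direction. IFNG was lower with chaetocin than with F5446 at an unadjusted level (-1.92, edgeR adjusted p = 0.999). In that comparison 3.40% of all genes tested were past it in either direction.

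Against DMSO, few genes of the list were at an unadjusted p under 0.05 by edgeR. With F5446, USF1, a factor of the CIITA promoter, was higher by 0.51, with no call, where 1.51% of all genes tested were higher at that level. With romidepsin it was PRDM1 alone, higher by 0.56, with no call, where 1.82% of all genes tested were higher. PRDM1 encodes a repressor that shuts CIITA off in plasma cells, and CIITA was at 0.17 in the same comparison. The 40 genes had median log2 fold changes of -0.03, 0.04 and -0.06 for chaetocin, F5446 and romidepsin.

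**Figure D3:**
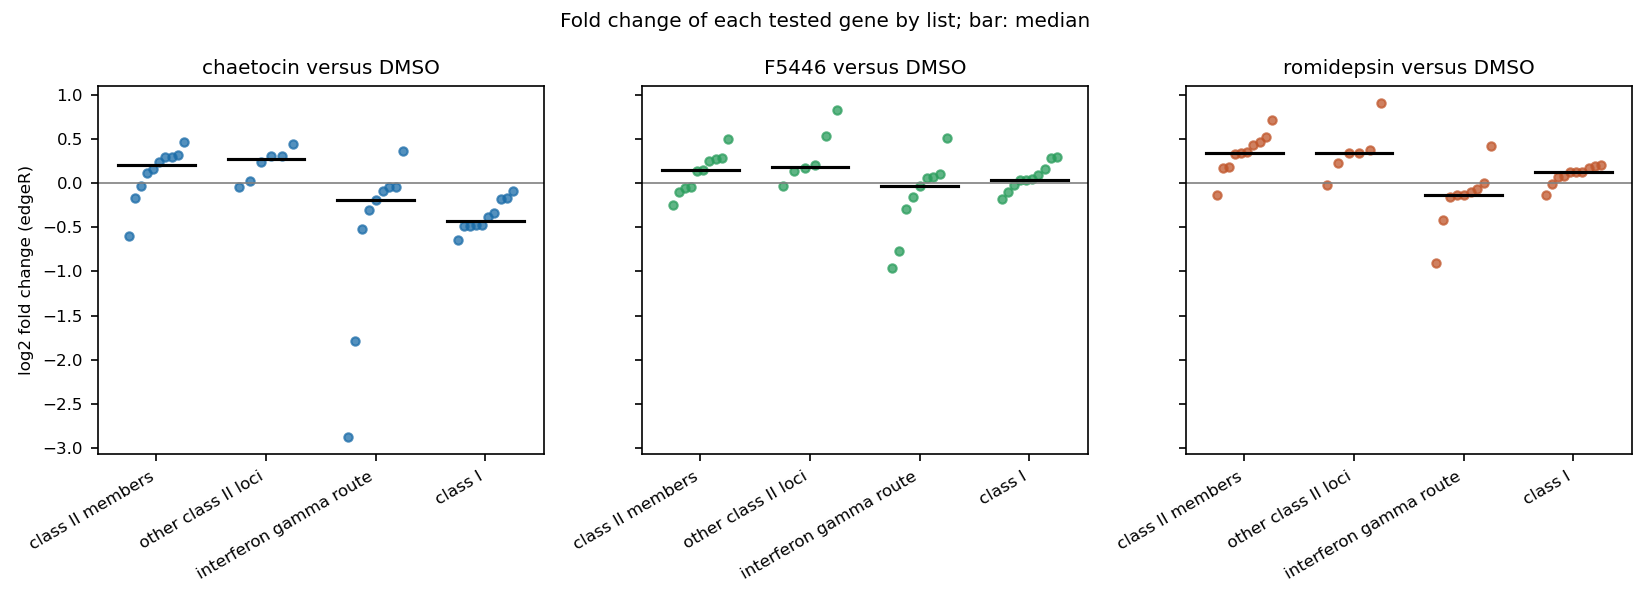
Log2 fold change against DMSO (y axis) for chaetocin, F5446 and romidepsin, with 1 point a gene and a bar at the median of each list: the 10 genes described here, the further class II loci, the interferon gamma route and the class I genes. With chaetocin the class I median is -0.42 and that of the 10 genes is 0.20; with romidepsin they are 0.12 and 0.34.

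Across the 13 libraries the DR and DP partners varied together, and CIITA varied apart from most of these genes. Correlations were computed on log2 CPM with a prior count of 2, over libraries that share treatment groups, replicate numbers and a scaling, and they are given as a description. Of the 45 pairs among the 10 genes, 36 had a Pearson r above 0, with a median of 0.39. Among the partners of a molecule, r was 0.82 between HLA-DRA and HLA-DRB1 and 0.83 between HLA-DPA1 and HLA-DPB1, but 0.39 between HLA-DQA1 and HLA-DQB1 and 0.03 between HLA-DMA and HLA-DMB. CD74 and HLA-DPA1 were at 0.82. CIITA had a median r of 0.07 with the other 9, and those 9 had a median of 0.47 among themselves.

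CIITA was at -0.35 with CD74, 0.02 with HLA-DPA1, 0.07 with HLA-DRB1 and 0.37 with HLA-DRA. Its closest partner was HLA-DMA with 0.79, and both were higher in numbers 1 and 2 in every group, as was HLA-DRA by 0.02 to 0.46 on the log2 scale. HLA-DMA ran from 23.9 to 39.4 CPM there and from 16.3 to 25.2 CPM in numbers 3 and 4. Within the sets that value was 0.47 in the 6 libraries numbered 1 or 2 and 0.27 in the 7 numbered 3 or 4. CIITA and HLA-DPA1 were at 0.90 within numbers 1 and 2 and 0.32 within 3 and 4, where the pooled value was 0.02. The median r of CIITA with the other 9 was 0.41 and 0.30 within the sets. HLA-DRA and HLA-DRB1 were at 0.98 and 0.87 within the sets, and HLA-DPA1 and HLA-DPB1 at 0.56 and 0.94.

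**Figure D4:**
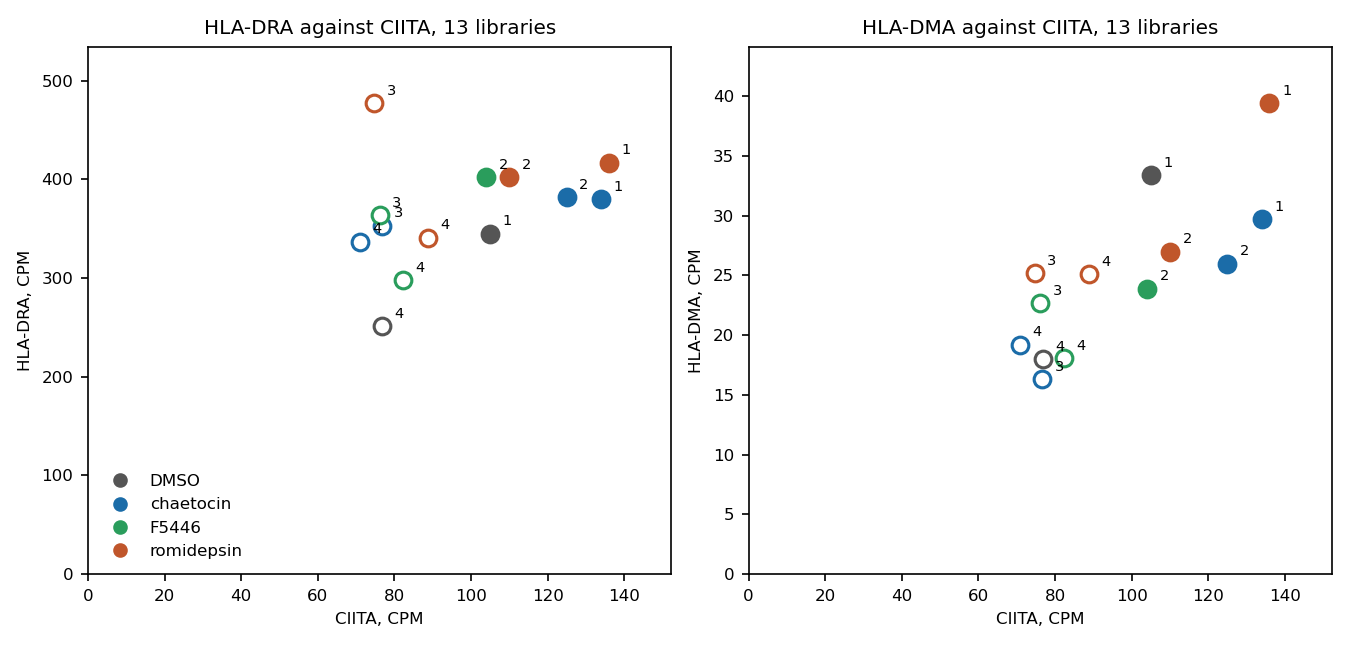
CIITA (x axes, CPM) against HLA-DRA and HLA-DMA (y axes, CPM), with 1 point a library, colored by group, numbered by replicate and filled for numbers 1 and 2. The filled points start at 104 CPM of CIITA and the open points end at 88.8 CPM, and r over the 13 libraries is 0.37 for HLA-DRA and 0.79 for HLA-DMA.

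**Figure D5:**
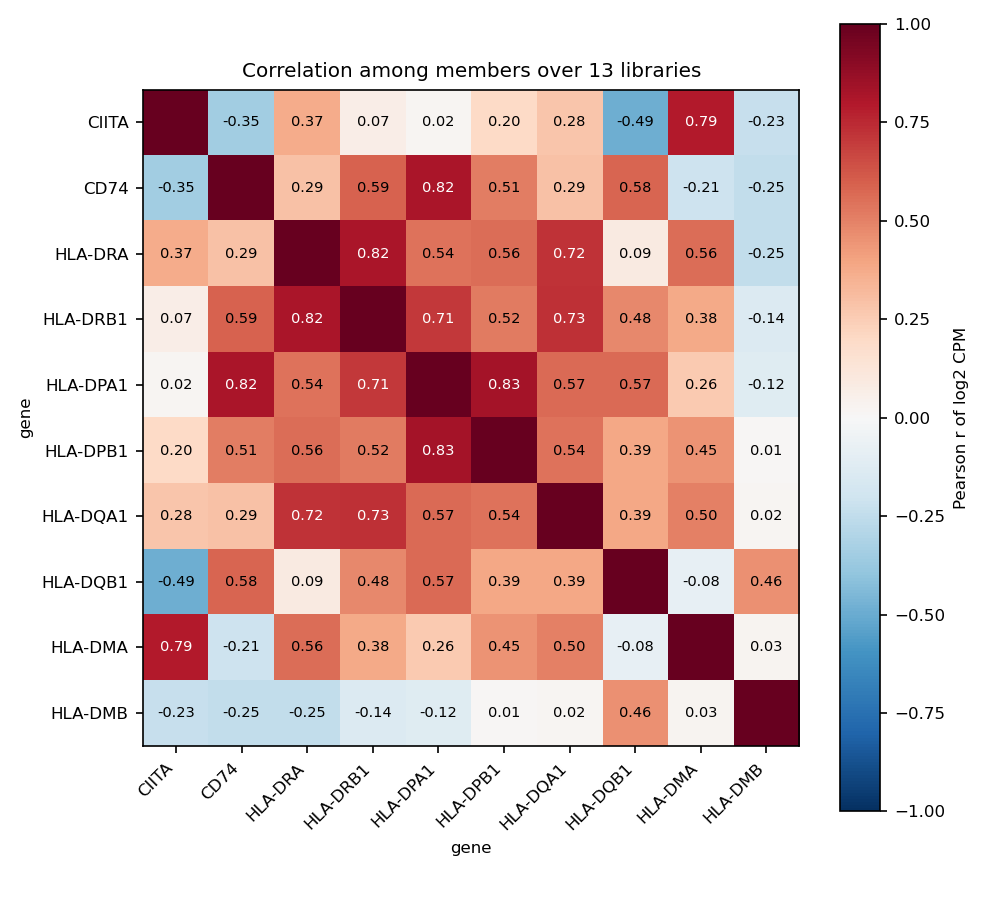
Pearson r between each pair of the 10 genes over the 13 libraries (log2 CPM), printed in each cell and as a color scale from -1 to 1. The HLA-DR and HLA-DP partners have values of 0.82 and 0.83, the HLA-DQ and HLA-DM partners 0.39 and 0.03, and CIITA has a median of 0.07 with the other 9.

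The genes most like CIITA and HLA-DRA across the 13 libraries were sought among the 10095 genes that reached 5 CPM or more on average. For CIITA they were SLC38A1 (r = 0.97), TNS3 (0.96), CHRNA5 (0.96), SLC5A6 (0.95) and SLC20A1 (0.95). SLC38A1, an amino acid transporter, was at 355 to 436 CPM in the libraries numbered 1 or 2 and at 249 to 326 CPM in those numbered 3 or 4, the same parting as CIITA. Within either set alone the 5 closest genes were others. For HLA-DRA they were BHLHE40-AS1 (0.91), DPH3 (0.90), MCTP1 (0.88), MELK (0.86) and SLC30A9 (0.85). HLA-DRB1, its partner, took place 14 in that order and HLA-DQA1 place 85, while HLA-DMA took place 484 in the order for CIITA. Of the 5 genes named for HLA-DRA, SLC30A9 alone was among the 5 closest within numbers 3 and 4, and none was within numbers 1 and 2. DMSO replicate 4 was the lowest library in HLA-DRA and in each of those 5.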

How the data were processed

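RNA from HuT78 cells was sequenced from 13 libraries in 4 groups. The deposited values are raw read counts per gene, made by the authors with HTSeq 0.6.1 on hg19 after bcl2fastq 2.20.0.422 and cutadapt 1.8.1, per the submitters' processing notes. The library kit was one for human RNA that may be degraded, per the labels' protocols. For aligner, annotation and strand setting the entry is "not given in the sources used here". Overlapping and antisense genes therefore cannot be told apart. F5446 libraries were grouped by title, since the last digits of the code name in their treatment tags vary.

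Genes were filtered by edgeR's filterByExpr over the groups, and all 13 libraries were fitted together with edgeR 4.0.16 in R 4.3.3 (TMM, robust quasi-likelihood, group as the only term). P-values were two-sided and adjusted by Benjamini-Hochberg over all genes tested in each of 6 comparisons, with a threshold of 0.05. The script was tested on simulated data. Values at an unadjusted p are named as such. Library totals, from 19901052 to 30816188 counts, limit precision most in HLA-DMB and HLA-DQA1.

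The genes and gene lists were chosen with earlier results of these data known. All 10 genes are named in every comparison; of the pathway list, genes at an unadjusted p under 0.05 and a few by role are named; likeness was ranked by Pearson r on log2 CPM. CREB1, IRF1 and IFNG levels with chaetocin and the MIF levels were added after their values were seen.

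Same-numbered libraries of the compounds deviated together, with correlations of 0.17 to 0.67 in the 3 comparisons between compounds, so the numbers were taken to pair those libraries. In romidepsin against chaetocin, numbers 3 and 4 correlated better with each other (0.44 and 0.31) than with their own number (0.25 and 0.23), so the numbers mark sets there as much as pairs. The pairing comes from the data and not from the labels. Alternatives were DESeq2 1.42.0, limma-voom (limma 3.58.1), other scaling and filters, 2-group fits, the block, a term for numbers 1 and 2 against 3 and 4, and each library left out. Some genes that the naming rule covers are not reported here. Promoter sequences are from RefSeq (GRCh38.p14), whose coordinates differ from those of hg19. Figures used matplotlib 3.10.9.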

Additional observations from a re-analysis of the deposited data

Results flagged for a closer look

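HLA-DMA, a chain of the peptide exchange molecule HLA-DM, was at 39.4 CPM in romidepsin replicate 1 and at 25.1 to 27.0 CPM in the other 3 romidepsin libraries. The gap to the nearest library was 0.862 of the range of the group, above Dixon's critical value for 4 samples at 95%. It was the only library set apart in this way in 20 checks, the 10 genes in the chaetocin and the romidepsin groups, and chance sets apart about 1 in 20. The same library had the highest CIITA level of all 13 (136 CPM), and the romidepsin against F5446 difference of HLA-DMA was 0.44 on the log2 scale with it and 0.26 without it.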

How the results depend on the processing

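Across the alternative settings, 440 of 450 log2 fold changes of the 10 genes in the 5 comparisons other than chaetocin against DMSO kept their sign. With single libraries left out 306 of 330 did, and none was called. These fits reuse the same libraries, so their values are not independent, and only romidepsin against F5446 shares no library with the choice. The cause of the changes was not tested. Against DMSO the replicate numbers are shared by 2 pairs at most, so the block there is not a paired analysis. Counts of genes called moved most. For chaetocin against DMSO (0) they were 9 with no filter, 10 with the replicate block, 7 with the term for numbers 1 and 2 against 3 and 4 (the set term) and 9 with DESeq2. For F5446 against DMSO (0), DESeq2 called 1. For romidepsin against DMSO (0) they were 5 with no filter and 1 each with the block, the set term and DESeq2. For chaetocin against F5446 (0) they were 9 with no filter, 11 with the block, 5 with the set term and 2 with DESeq2. For romidepsin against F5446 (0) they were 6 with no filter, 2 with the block and 2 with the 2-group fit. For romidepsin against chaetocin (16) they were 72, 144, 108, 7 and 60 with no filter, the block, the set term, the 2-group fit and DESeq2. Of the 10 genes, those at an unadjusted p under 0.05 became 2 with the set term in F5446 against DMSO and 1 with the block in chaetocin against F5446. In romidepsin against chaetocin they became 4, 3 and 0 with the block, the set term and the 2-group fit.

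Signs turned with the block in F5446 against DMSO (CIITA 0.16, HLA-DPB1 0.03, HLA-DMA 0.05, HLA-DMB 0.03), romidepsin against DMSO (HLA-DMB 0.03) and chaetocin against F5446 (HLA-DMA -0.10). They turned with the set term for CIITA in F5446 against DMSO (0.05) and HLA-DMA in chaetocin against F5446 (-0.04). They also turned with limma-voom for HLA-DMB in romidepsin against F5446 (0.06) and with no filter for CIITA in romidepsin against chaetocin (-0.01). With the block none of the 10 genes was called in the comparisons other than chaetocin against DMSO.

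With single libraries left out, genes called ran from 0 to 2 for chaetocin against DMSO, 5 to 22 for romidepsin against chaetocin and were 0 throughout in the other comparisons. The median of the 10 genes ran from 0.09 to 0.36 for chaetocin, 0.05 to 0.24 for F5446 and 0.26 to 0.55 for romidepsin against DMSO. Between compounds it ran from -0.04 to 0.11 for chaetocin against F5446, 0.19 to 0.28 for romidepsin against F5446 and 0.17 to 0.30 for romidepsin against chaetocin. Genes of the 10 at an unadjusted p under 0.05 ran from 0 to 2, 1 to 7, 0 to 1, 1 to 2 and 0 to 3 in F5446 and romidepsin against DMSO, chaetocin and romidepsin against F5446, and romidepsin against chaetocin. Genes whose sign turned had these ranges: in chaetocin against DMSO, CIITA -0.04 to 0.41, HLA-DPB1 -0.09 to 0.35, HLA-DQB1 -0.15 to 0.11 and HLA-DMA -0.55 to 0.34. In F5446 against DMSO they were CIITA -0.26 to 0.18, HLA-DPB1 -0.25 to 0.18, HLA-DMA -0.63 to 0.25 and HLA-DMB -0.41 to 0.10. In romidepsin against DMSO they were CIITA -0.04 to 0.41, HLA-DMA -0.19 to 0.70 and HLA-DMB -0.23 to 0.01. In chaetocin against F5446 they were CD74 0.00 to 0.15, HLA-DRA -0.08 to 0.13, HLA-DRB1 -0.18 to 0.11 and HLA-DMA -0.07 to 0.22. In romidepsin against F5446 they were CD74 -0.02 to 0.17 and HLA-DMB -0.23 to 0.28, and in romidepsin against chaetocin CIITA -0.16 to 0.17 and CD74 -0.08 to 0.09. Comparisons without 1 DMSO library assume that the other varies like the remaining groups. At 113 to 355 reads a library, HLA-DMB is the gene in which counting error weighs most.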
